A study of Sus scrofa with 13 samples.

Results

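The genes of the Notch receptors NOTCH1, NOTCH2, NOTCH3 and NOTCH4, of their ligands JAG1, JAG2, DLL1 and DLL4, and of the target transcription factors HEY1 and HES1 were followed through a comparison of 5-hydroxymethylcytosine (5hmC) in pig mesenchymal stem cells. They were chosen by symbol, and all 10 were among the 27339 genes of the count tables. 5hmC is the oxidised form of methylated cytosine that the oxygen-dependent TET enzymes make, and it was captured with an antibody from sheared DNA and sequenced.

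Hypoxia meant 1% oxygen over the last 48 hours of culture (6 libraries), and normoxia meant 20% oxygen (6 libraries). All cells were grown from abdominal fat of domestic female pigs on a 2% high-cholesterol diet, with a narrowing of the renal artery produced by a coil after 6 weeks of diet. The fat was taken 3 weeks after the coil was placed. The age of the animals is not given in the labels, and no library from healthy pigs or untreated tissue was analysed here. The sample titles start with the numbers 4, 16, 21, 33, 49 and 110, and both groups held a library of every number. The labels do not say what a title number stands for or whether libraries came from separate animals. The spread behind each p-value is therefore that of the libraries, part or all of which may be technical.

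Notch signalling passes between touching cells. A Jagged or Delta-like ligand on 1 cell binds a Notch receptor on its neighbour, ADAM proteases and gamma-secretase cut the receptor, and the freed intracellular part enters the nucleus, where it joins RBPJ and a Mastermind protein and switches on HES and HEY genes. In mesenchymal cells the pathway is known for holding back or steering differentiation, and in blood vessels for the identity of arteries and of the mural cells around them. 5hmC often lies in the bodies of active genes, but it is a mark on DNA and not a measure of transcription.

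Hypoxia and normoxia libraries did not differ detectably in 5hmC reads at any Notch gene that could be tested. Reads were found at 8 of the 10 genes, and 5 of them (NOTCH2, NOTCH3, NOTCH4, JAG1 and DLL4) had enough for the test. Of these 5, 0 passed edgeR's quasi-likelihood test with Benjamini-Hochberg adjustment over 11868 genes, 0 had an unadjusted p under 0.05, and DESeq2's Wald test also called 0. Over all genes tested, 0% passed without regard to the title numbers and 0.0337% with the title number as a block. The unadjusted p was under 0.05 at 2.73% of the genes without the block and at 7.09% with it. The ranges of the hypoxia and normoxia libraries overlapped at all 8 genes with reads; they were separate at 0.101% of the genes tested.

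The libraries held 15569948 to 27428482 reads, of which 263578 to 714002, or 1.69 to 2.89%, fell in genes. The normoxia library of number 21 had the fewest reads in genes, 1.69% of its reads against 2.17 to 2.89% in the other libraries. Reads of low alignment quality were 10.3% of it, against 4.12 to 7.23% in the others. This library gave the lowest normoxia value at NOTCH4, JAG1, DLL4 and HES4 and the highest at ITCH and CNTN1. The part of its quality in these values was not tested. The 8 Notch genes with reads took 2915 reads over the 12 libraries, which was 0.0376 to 0.0586% of gene reads in the hypoxia libraries and 0.0372 to 0.0595% in the normoxia libraries. Which stretches of a gene were counted is not given in the sources used here, so the reads of a gene may stand for only part of it. Levels are given below as CPM, the reads of a gene scaled to a common library size by TMM. Since CPM are not corrected for gene length, levels of different genes were not compared. In bulk samples like these, fewer cells of a type and less 5hmC per cell cannot be told apart.

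Reads also lay at marker genes of every lineage looked at, so 5hmC reads gave no check of the cell type in the labels. Reads were found at 9 of 9 stromal markers (716 to 972 CPM summed in hypoxia, 729 to 1260 CPM in normoxia), at 9 of 10 endothelial markers (533 to 682 CPM in hypoxia, 395 to 637 CPM in normoxia, with CLDN5 at 0) and at 9 of 9 mural markers (265 to 539 CPM in hypoxia, 209 to 572 CPM in normoxia). They were also found at 8 of 8 leukocyte markers (640 to 746 CPM in hypoxia, 541 to 792 CPM in normoxia), at 6 of 6 adipocyte markers (271 to 508 CPM in hypoxia, 171 to 348 CPM in normoxia) and at 5 of 5 epithelial markers (100 to 167 CPM in hypoxia, 84.2 to 159 CPM in normoxia). The mural markers include NOTCH3, so their sums hold the reads of a Notch gene followed here. No tested marker passed edgeR's test, with or without the block, and the part of cell makeup in the Notch values was not tested.

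NOTCH2 encodes a broadly expressed receptor, and its reads were 56.0% of those counted at the Notch genes here, a share that sets the precision of its values and, with no length correction, gives no rank among the receptors. It had 74 to 180 reads per hypoxia library and 64 to 196 per normoxia library. Its level was 203 CPM at the lowest, 318 at the median and 342 at the highest in hypoxia, against 275, 320 and 413 CPM in normoxia. The lowest value, that of hypoxia number 21, stood apart, and the other hypoxia libraries lay within the normoxia range. NOTCH2 averaged 301 ± 50.5 CPM in hypoxia and 327 ± 47.0 CPM in normoxia (SD, n = 6 each), and its log2 fold change was -0.12 ± 0.190 (SE; edgeR adjusted p = 1). The 95% interval of the fold change reached from 0.7 to 1.21, the narrowest of the 5 genes tested. Without hypoxia number 21 the log2 fold change was -0.02, and without normoxia number 33, the highest library, it was -0.03.

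NOTCH3 encodes the receptor best known from vascular smooth muscle and pericytes. In hypoxia its level had a low of 47.2, a median of 68.5 and a high of 87.8 CPM, against 48.1, 62.4 and 94.0 CPM in normoxia, on 16 to 61 reads per library. The groups covered almost the same range, and number 4 held both the lowest hypoxia and the highest normoxia value. NOTCH3 averaged 68.4 ± 13.3 CPM in hypoxia and 66.5 ± 16.7 CPM in normoxia (SD, n = 6 each), and the log2 fold change was 0.04 ± 0.243 (SE; edgeR adjusted p = 1). Its interval ran from 0.723-fold to 1.46-fold. The sign turned without hypoxia number 33 (-0.05) or normoxia number 49 (-0.04), and in the 4 libraries of sequencing lane 8 alone (-0.21).

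NOTCH4, a receptor gene known from endothelium, varied widely between libraries. Its level was 22.3 CPM at the lowest, 35.5 at the median and 62.5 at the highest in hypoxia, and 9.66, 21.9 and 77.1 CPM in normoxia. Within normoxia, number 4 had 50 reads and number 21 had 2, while the hypoxia libraries of these numbers had 14 reads (number 4) and 15 reads (number 21). Hypoxia was higher in 4 of 6 numbers. NOTCH4 averaged 37.0 ± 14.3 CPM in hypoxia and 33.0 ± 26.0 CPM in normoxia (SD, n = 6 each), and the log2 fold change was 0.08 ± 0.398 (SE; edgeR adjusted p = 1), with an interval of 0.595-fold to 1.87-fold. This value rested on single libraries. It was 0.57 without normoxia number 4, -0.15 without hypoxia number 33, and -0.06, -0.08 and -0.03 without normoxia number 21, 49 or 110. Lane 7 alone gave 0.55 and lane 8 alone -0.57, neither past the test.

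NOTCH1, the receptor most studied in stem cells, and the ligand gene JAG2 were listed at 0 in all 12 libraries. The RefSeq table of assembly Sscrofa11.1 puts neither on a chromosome. Of the 1356 symbols in the count tables that it leaves without a chromosome, 1356 were at 0 in all libraries, against 437 of 25482 (1.71%) of those it places on one. The zeros of NOTCH1 and JAG2 were therefore shared by every gene of that class, and no level, limit or fold change is given for either gene.

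**Figure D1:**
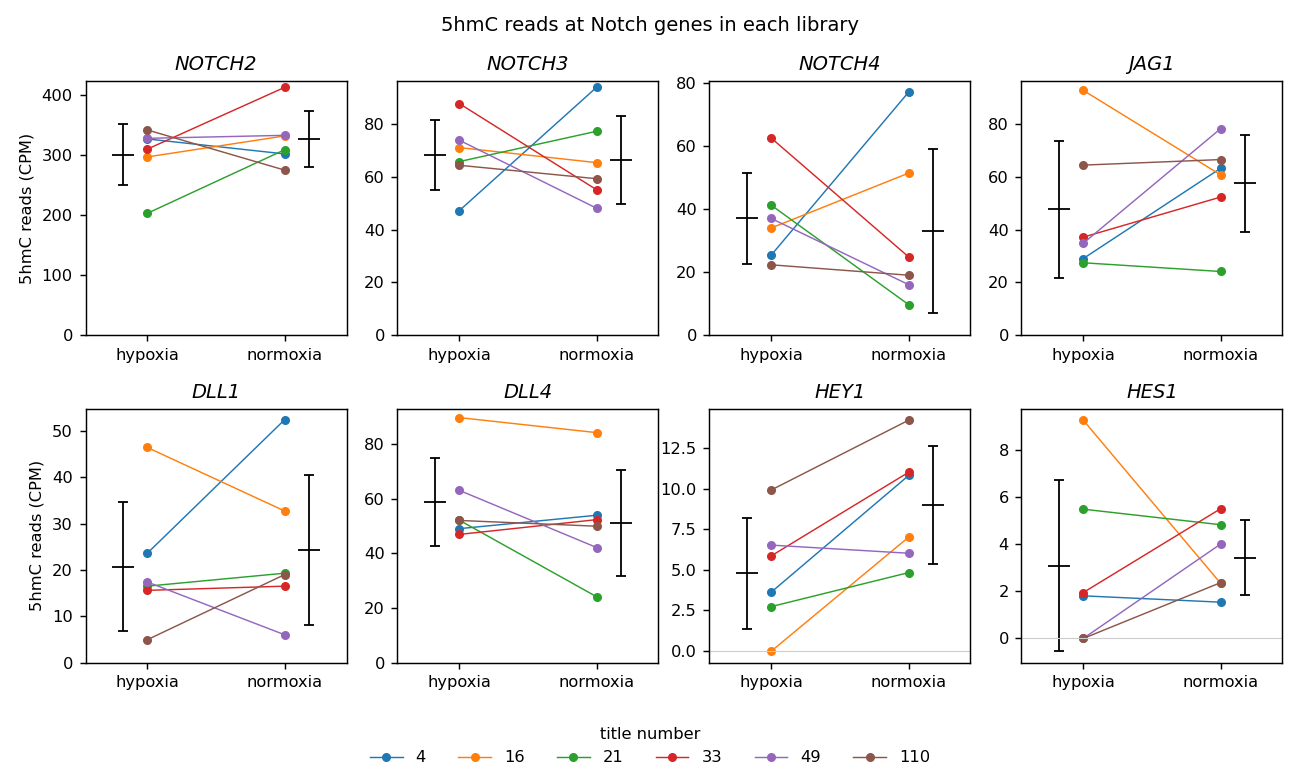
5hmC reads in CPM (vertical axis) at the 8 Notch genes with reads, with hypoxia libraries on the left and normoxia libraries on the right of each panel. Points are libraries, lines join the libraries of 1 title number, and bars beside them give the mean and SD of each group (n = 6). The groups overlap in every panel, and the lines of NOTCH4 run both up and down, with normoxia number 4 at 77.1 CPM and normoxia number 21 at 9.66 CPM.

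Among the ligands, JAG1 had the largest difference of the tested Notch genes, and it lay within the spread between libraries. JAG1 encodes a transmembrane ligand of stromal and vascular cells. In hypoxia its level was 27.4 CPM at the lowest, 35.9 at the median and 92.7 at the highest, against 24.1, 62.0 and 78.2 CPM in normoxia, on 5 to 41 reads per library. The hypoxia median lay below the normoxia median, but hypoxia number 16 was the highest of all 12 libraries, and normoxia number 21 was the lowest. JAG1 averaged 47.6 ± 25.9 CPM in hypoxia and 57.5 ± 18.4 CPM in normoxia (SD, n = 6 each), and hypoxia was higher in 2 of 6 numbers, 16 and 21. Its log2 fold change was -0.34 ± 0.318 (SE; edgeR adjusted p = 1), and -0.37 ± 0.260 with the title number as a block (adjusted p = 0.837), with intervals of 0.499-fold to 1.24-fold and 0.536-fold to 1.12-fold. Without hypoxia number 16 it was -0.61. Within lane 7, which held numbers 16, 21, 33 and 110, it was 0.05, and within lane 8, which held numbers 4 and 49, it was -1.11, so its sign was not the same in both lanes.

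DLL4, a ligand gene known from sprouting vessels, had 46.9 CPM at the lowest, 52.1 at the median and 89.6 at the highest in hypoxia, against 24.1, 51.1 and 84.1 CPM in normoxia. Number 16 was the highest in both groups, and the medians nearly coincided. DLL4 averaged 58.8 ± 16.1 CPM in hypoxia and 51.1 ± 19.5 CPM in normoxia (SD, n = 6 each), on 5 to 36 reads per library. The log2 fold change was 0.16 ± 0.274 (SE; edgeR adjusted p = 1), with an interval of 0.751-fold to 1.65-fold, and stayed positive in lane 7 (0.13) and in lane 8 (0.25). It was 0.02 without hypoxia number 16, 0.04 without normoxia number 21 and 0.36 without normoxia number 16.

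DLL1, a ligand gene with roles in development, fell short of the count filter, with 52 reads in the hypoxia libraries and 69 in the normoxia libraries. Its level ranged from 4.96 CPM to 46.4 CPM in hypoxia and from 6.02 to 52.4 CPM in normoxia. Number 16 in hypoxia and number 4 in normoxia were the highest. The ratio of the pooled reads, hypoxia over normoxia and scaled by library size, was 0.74, with an exact 95% interval of 0.506 to 1.08 that covers counting error only.

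The target genes HEY1 and HES1, which encode repressors of the basic helix-loop-helix class, had too few reads for the test. HEY1 had 0 to 4 reads per hypoxia library and 1 to 7 per normoxia library, 13 against 24 in all. The hypoxia library was higher in 1 of 6 numbers. The pooled ratio was 0.532, with an exact interval of 0.249 to 1.09 for counting error only. HES1 had 0 to 3 reads in hypoxia libraries and 1 to 2 in normoxia libraries, 7 against 8 in all, with a ratio of 0.859 (0.265 to 2.71). At this depth a difference at HES1 of less than several-fold was not detectable.

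**Figure D2:**
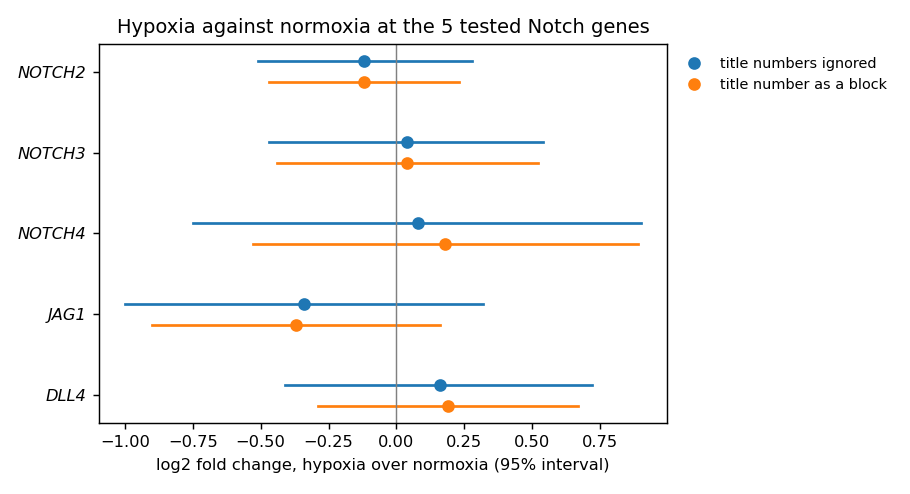
Log2 fold change of hypoxia over normoxia (horizontal axis) at the 5 Notch genes with enough reads, as a point with its 95% interval, without regard to title numbers (blue) and with the title number as a block (orange). Every interval crosses 0; that of NOTCH2 is the narrowest (-0.51 to 0.28 in blue) and that of NOTCH4 the widest (-0.75 to 0.90).

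With the title number as a block, 0 of the 5 genes passed edgeR's test either. The blocked log2 fold changes were -0.12 ± 0.173 (SE) for NOTCH2, 0.04 ± 0.236 for NOTCH3, 0.18 ± 0.349 for NOTCH4 and 0.19 ± 0.236 for DLL4, with adjusted p of 0.936, 0.992, 0.955 and 0.919.

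Reads scattered beyond counting error at some of the Notch genes. For each gene the squared deviations from the group's mean rate were divided by the expected reads, so that counting error alone gives a ratio near 1. The ratio was 2.92 for NOTCH2, 1.79 for NOTCH3 and 5.72 for NOTCH4 among the receptors, and 3.5 for JAG1, 2.04 for DLL4 and 4.43 for DLL1 among the ligands. It was 0.708 for HEY1 and 1.06 for HES1. The ratio grows with the number of reads for the same relative spread, so it gives no order of the genes. NOTCH3, NOTCH4 and DLL1 all had their highest normoxia value in number 4.

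In a comparison added after the values were seen, the same model was used to ask whether libraries of the same title number shared a level at the Notch genes. Of the 5 tested, 0 passed edgeR's test among the 6 numbers and 0 had an unadjusted p under 0.05. Over all genes tested 12.8% passed, a share from which 0 of 5 genes cannot be told apart. The adjusted p was 0.222 for JAG1, 0.326 for DLL4, 0.353 for NOTCH4, 0.799 for NOTCH2 and 0.984 for NOTCH3. JAG1 had close values in some pairs, with 64.4 CPM in hypoxia and 66.5 CPM in normoxia for number 110 and 27.4 CPM in hypoxia and 24.1 CPM in normoxia for number 21. Other pairs lay apart, with 29.0 CPM in hypoxia and 63.2 CPM in normoxia for number 4, and 34.8 and 78.2 CPM for number 49. DLL4 likewise had a close pair in number 110 (52.0 CPM in hypoxia and 49.9 CPM in normoxia) and a wide one in number 21 (52.1 and 24.1 CPM). DLL1 passed when no count filter was applied (adjusted p = 0.0341). Under other settings edgeR's unadjusted p fell under 0.05 at some tested genes. It was 0.0162 for JAG1 in lane 7 alone (adjusted p = 0.112) and 0.0466 for NOTCH2 with all reads as library size (0.166). For NOTCH4 without a count filter it was 0.0483 (0.242).

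The rest of the pathway was measured through 54 further genes, of which 52 had reads and 39 had enough for the test. Of these 39, 0 passed edgeR's or DESeq2's test and the unadjusted p was under 0.05 for 0 of them when the block was left out. With the block 0 passed, and the unadjusted p was under 0.05 for 3 (DTX3, HES4 and HEY2), a share near the 7.09% of all genes tested. The log2 fold change was positive for 16 of the 39 and negative for 23, with a median of -0.03. Over all genes tested, 43.4% were positive and 56.6% negative, and their median was -0.04. Of the 5 receptor and ligand genes tested, 3 were positive and 2 negative (median 0.04). NRARP, a feedback inhibitor, and EGFL7, a secreted protein that binds Notch, were listed at 0 in all libraries and, like NOTCH1 and JAG2, had no chromosome in the RefSeq table.

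The cleavage machinery showed no common shift. Of its 9 genes 7 were tested, 4 positive and 3 negative, with a median log2 fold change of 0.06. APH1B, a subunit of gamma-secretase, averaged 240 ± 22.0 CPM in hypoxia and 287 ± 103 CPM in normoxia (SD, n = 6 each). Its log2 fold change was -0.26 ± 0.224 (SE). With 1 library left out, it ranged from -0.39 to -0.08, the latter without normoxia number 33 (454 CPM). Of the genes that put sugars on Notch or draw ligands into the cell, 6 of 9 were tested, 2 positive and 4 negative, with a median of -0.13. POFUT1, which adds fucose to the receptor, averaged 43.2 ± 8.90 CPM in hypoxia and 33.8 ± 4.65 CPM in normoxia (SD, n = 6 each; log2 fold change 0.35 ± 0.253), and MIB1, a ubiquitin ligase for ligands, had -0.17 ± 0.273.

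In the nucleus, 11 of 13 genes were tested, 4 positive and 7 negative, with a median log2 fold change of -0.03. RBPJ, the DNA-binding partner of cleaved Notch, had 794 reads in hypoxia and 756 in normoxia. After scaling it averaged 304 ± 54.5 CPM in hypoxia and 315 ± 76.6 CPM in normoxia (SD, n = 6 each). It was higher in hypoxia in 1 of 6 numbers, and its log2 fold change was -0.04 ± 0.209 (SE). HDAC1, a histone deacetylase, had -0.20 ± 0.217 and EP300, a histone acetyltransferase, -0.17 ± 0.207. Of the modulators 8 of 10 were tested, 3 positive and 5 negative, with a median of -0.02. DTX3, of the Deltex family, had 0.44 ± 0.318, and 0.55 ± 0.23 with the title number as a block (unadjusted p = 0.0241, adjusted p = 0.646 in edgeR). ITCH, a ubiquitin ligase, had -0.47 ± 0.363, and -0.45 ± 0.313 with the block. With 1 library left out, ITCH ranged from -0.6 to -0.15, the latter without normoxia number 21 (91.8 CPM). Of the other ligands 4 of 6 were tested, 2 positive and 2 negative, with a median of 0.00, among them DLK1 at 0.19 ± 0.374 and CNTN1 at -0.17 ± 0.379.

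Among the tested genes of the pathway, the widest differences were those of HES4 and HEY2, from the list of other HES and HEY genes. Of the 7 genes of that list 3 were tested, with a median log2 fold change of -0.27. HES4 had 24.7 CPM at the lowest, 39.3 at the median and 63.5 at the highest in hypoxia, against 9.66, 27.1 and 40.1 CPM in normoxia, and was higher in hypoxia in 5 of 6 numbers. Its log2 fold change was 0.63 ± 0.317 (SE; unadjusted p = 0.0606 and adjusted p = 1 in edgeR), and 0.66 ± 0.290 with the block (unadjusted p = 0.0289, adjusted p = 0.664). HEY2, a target gene of the arterial and cardiac programs, had a median of 26.7 and a high of 49.0 CPM in hypoxia, against 50.0 and 75.5 CPM in normoxia, and 3 to 49 reads per library. It was higher in hypoxia in 1 of 6 numbers, with a log2 fold change of -0.59 ± 0.426 and -0.58 ± 0.281 with the block (unadjusted p = 0.0491, adjusted p = 0.700 in edgeR). HEYL had -0.27 ± 0.372. None of the 3 passed the test, and unadjusted p-values as small as those of HES4 and HEY2 with the block are within the 7.09% of all genes that lay under 0.05.

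**Figure D3:**
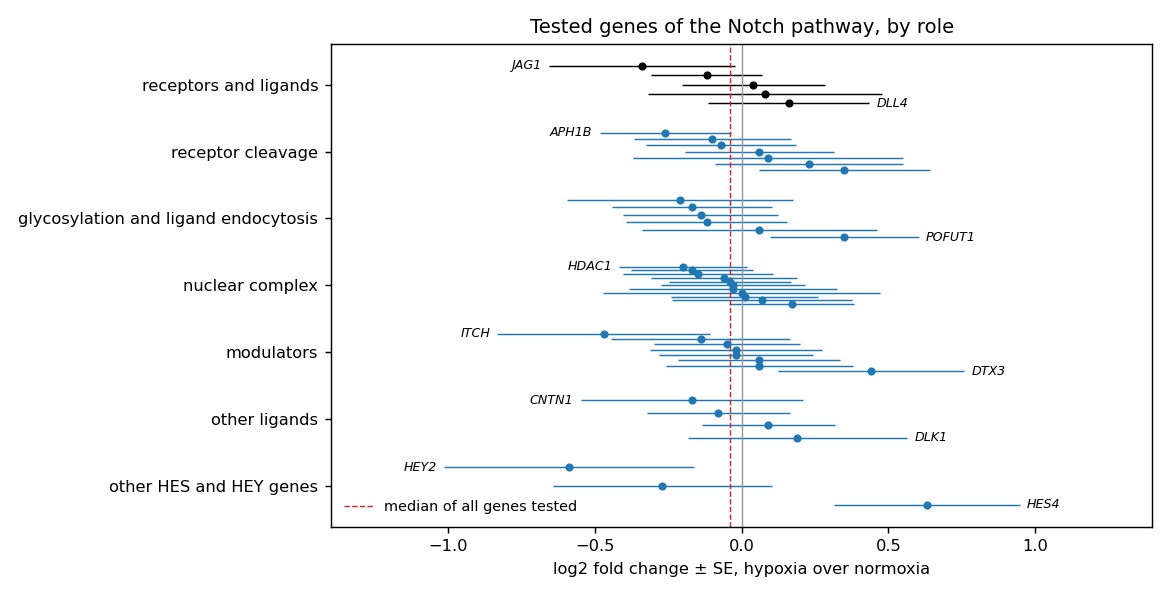
Log2 fold change of hypoxia over normoxia with its SE (horizontal axis) for each tested gene of the Notch pathway, grouped by role, without regard to title numbers; genes named in the text are marked at the ends of the groups, and the dashed line is the median of all genes tested (-0.04). Points lie on both sides of 0 in every group, from HEY2 at -0.59 to HES4 at 0.63.

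Of the 39 other pathway genes, 6 differed among title numbers in edgeR's test, a share near that of all genes tested (12.8%). HEY2 had the smallest adjusted p (0.00496). Number 16 had 4 reads in hypoxia (12.4 CPM) and 4 in normoxia (9.34 CPM), and number 21 had 4 reads in hypoxia and 3 in normoxia (14.5 CPM). In the other 4 numbers HEY2 lay between 26.1 CPM (hypoxia number 49) and 75.5 CPM (normoxia number 4). Numbers 16 and 21 were thus low under both oxygen levels.

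The proteases ADAM10 (adjusted p = 0.0220) and ADAM17 (0.0441), which make the first cut after ligand binding, were both highest in numbers 49 and 110. Means of the 2 libraries of a number were 61.2 and 47.1 CPM there for ADAM10, against 13.9 to 36.1 CPM in the other 4 numbers. For ADAM17 they were 77.5 and 75.5 CPM, against 24.7 to 49.3 CPM. The coactivator MAML2 (0.0396) was lowest in number 33, with 170 CPM in hypoxia and 165 CPM in normoxia. DTX4 (0.0179) and SNW1 (0.0291), a Deltex-family gene and a cofactor of RBPJ, also passed. Depth, lane and whatever else the numbers carry move with the title number, and their part was not tested. With 2 libraries per number these calls changed with the numbers kept. Without both libraries of number 16, 1 pathway gene passed, ADAM10 (0.0449), and HEY2 had 0.0552. Without number 33 the test called 1, HEY2 (0.0119), and without number 49 it called 2, HEY2 (0.00487) and DTX4 (0.0393). Within lane 7 it called 3, HEY2 (0.0185) and MAML2 (0.0219) among them. Calls over all genes tested fell in these settings too, from 1520 to 919 without number 16 and 884 without 33. They were 954 without 49 and 834 within lane 7, and rose to 1657 without number 4 and 1935 without 21. A part particular to the pathway genes was not tested.

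**Figure D4:**
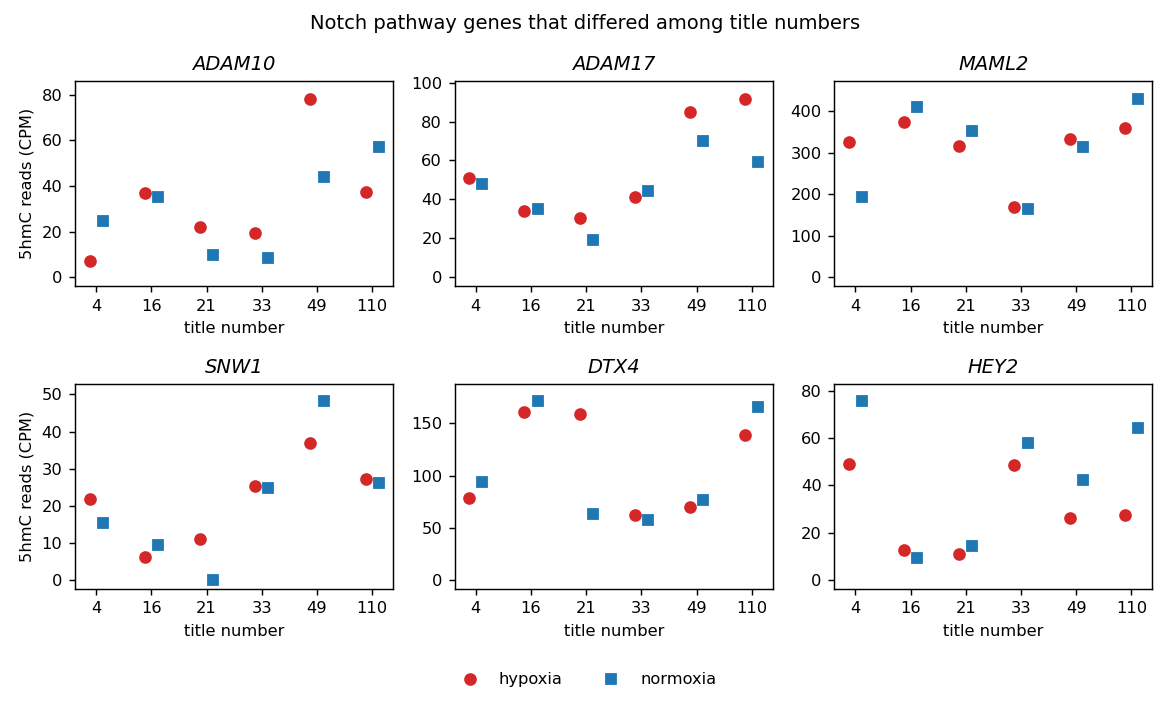
5hmC reads in CPM (vertical axis) of the 6 Notch pathway genes that differed among title numbers, with hypoxia (circles) left of normoxia (squares) for each number (horizontal axis). HEY2 is low in numbers 16 and 21 in both groups, and ADAM10 and ADAM17 are high in numbers 49 and 110.

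The genes whose pattern over the 12 libraries was most like that of NOTCH2, the Notch gene with the most reads, were PAM, a peptide-amidating enzyme (Pearson r of log2 CPM 0.844), LOC110262219 (0.836) and NFIB, a transcription factor (0.834). Those most like JAG1, the Notch gene with the smallest p, were FURIN (0.865), TTC28 (0.794) and FAM57A (0.78). FURIN is the convertase that cuts Notch receptors on their way to the cell surface; it had 150 reads in hypoxia and 162 in normoxia, and its log2 fold change was -0.07 ± 0.256 (SE). All 3 values of NOTCH2 leaned on hypoxia number 21, its outlying library, without which they were 0.674 for PAM, 0.668 for LOC110262219 and 0.73 for NFIB. Correlations with the group means removed were computed only for the 3 genes already picked for each Notch gene. Among those of JAG1, FAM57A (0.915) then came before FURIN (0.87). The genes were picked as the highest of 7116 correlations computed for each Notch gene before that step. The libraries share depth and title numbers, and all these values describe these libraries only.

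In the RefSeq table other genes overlap NOTCH2, NOTCH3 and NOTCH4 (LOC102160224, LOC100628051 and LOC102157581). Reads listed as ambiguous between genes, 0.005 to 0.0095% of all reads, were left out. The counts of these 3 receptors are therefore uncertain and may miss reads in the overlaps. The nearest tested genes on either side of the 8 Notch genes with a chromosome, 16 in all, included 0 that passed edgeR's test between hypoxia and normoxia. Next to NOTCH4, PBX2 had 0.32 ± 0.247 (log2 fold change ± SE), and on either side of DLL4, INO80 had -0.03 ± 0.205 and VPS18 0.10 ± 0.294.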

How the data were processed

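Antibody-captured 5hmC DNA was sequenced from 12 libraries. For every library the authors deposited raw read counts by gene symbol. The submitters' processing notes name Bowtie2, Picard, HTSeq, MACS2 and edgeR; no source used here gives their versions, the genome build, annotation, HTSeq feature type or strand setting. Between 88.0 and 93.0% of reads were outside any feature, 4.12 to 10.3% of low alignment quality and 0.005 to 0.0095% ambiguous. Library sizes and tests exclude these rows and a blank name with 0 reads. The peak lists name no build and the input sample belongs to no group; neither was used here.

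The test was that of edgeR 4.0.16 under R 4.3.3 (filterByExpr, minimum count 10 and total 15, TMM, glmQLFit, glmQLFTest, Benjamini-Hochberg over all genes, threshold 0.05). SE was taken as the size of the log2 fold change divided by the square root of F. DESeq2 1.42.0 was an alternative; tables were made with pandas 2.3.3. The procedure was tested on simulated data. Names were matched to RefSeq Sscrofa11.1 for 26838 of 27339 symbols.

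Libraries with the same title number deviated together (correlation across genes of deviations from group means 0.136 to 0.478, all above the threshold of 0.1). The numbers, taken from the titles, were therefore used as pairs in the blocked fit. Correlations between libraries of different numbers were not computed, so these values do not show that the likeness is particular to the pairs. Alternatives changed the scaling, filter, test, lane and libraries. Members and lists were chosen with earlier results of these data known. Genes named are all members, the 2 genes of each role list with the smallest p, any list gene called (0 between hypoxia and normoxia), and the 3 most alike in pattern to 2 members, except 1 gene that is not reported here; the test among title numbers was added, and its genes, RBPJ, HEYL, NRARP and EGFL7, the overlapping genes and the neighbours were named after values were seen. Intervals of pooled ratios are exact conditional binomial ones.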

Additional observations from a re-analysis of the deposited data

Results flagged for a closer look

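The hypoxia library of number 21 stood apart at NOTCH2, with 203 CPM on 74 reads, while the other 5 hypoxia libraries lay between 297 and 342 CPM. The gap to the nearest of them was 0.674 of the whole range, above Dixon's 95% critical value for 6 libraries. It was the 1 such case in 40 groups of libraries looked at, where chance flags about 1 in 20.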

How the results depend on the processing

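No alternative brought a call between hypoxia and normoxia at a Notch gene or another pathway gene, including both lanes alone, DESeq2 and each library left out. Over all genes the 0 calls became 4 with the replicate block, and 0 to 12 in the block without the pair of libraries of 1 number. The replicate block changed no other call. Of 470 recomputed log2 fold changes of 17 genes, 23 changed sign, in 7 genes. In lane 8 alone they were 0.08 for NOTCH2, -0.21 for NOTCH3, -0.57 for NOTCH4, 0.24 for HDAC1, -0.20 for DLK1 and 0.34 for CNTN1, and in lane 7 alone 0.05 for JAG1; the cause was not tested. With libraries left out, the range was -0.05 to 0.19 for NOTCH3 (in the block -0.10 to 0.29), -0.15 to 0.57 for NOTCH4 (-0.09 to 0.70, with -0.02 without number 21 and -0.000296 without 49), -0.05 to 0.55 for DLK1 (-0.08 to 0.41) and -0.33 to 0.17 for CNTN1 (-0.29 to 0.20, with 0.01 without 33). Of all genes, 1520 differed among title numbers, 2303 without a count filter, 834 in lane 7 alone, and 884 to 1935 with a number left out, the lowest without 33. Of the Notch genes, 0 did so, and 1 (DLL1) without a filter. Of the other pathway genes 6 did so, 3 in lane 7, and 1 to 8 with a number left out; HEY2, ADAM10, ADAM17, MAML2, SNW1 and DTX4 each lost the call under some of these. Few reads per gene limit the precision at DLL1, HEY1 and HES1 most.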

Other observations

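The nearest tested gene after NOTCH4, LOC106504370, was named after its values were seen. It differed among title numbers with an edgeR adjusted p of 1.07e-07 and had a log2 fold change of -0.34 ± 0.674 (SE) between hypoxia and normoxia. Number 21 had 326 CPM in hypoxia and 700 CPM in normoxia, and number 16 had 235 and 166 CPM. The libraries of the other 4 numbers lay between 32.1 and 61.9 CPM. NOTCH4 itself did not follow this order, with 41.2 CPM in hypoxia and 9.66 CPM in normoxia for number 21. In all, 3 of the 16 neighbours of Notch genes passed this test, a share near that of all genes tested (12.8%), among them LOC110256390 beside HES1 (adjusted p 0.000675) and LOC110259814 beside DLL1 (0.00199).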
